A study of Mus musculus with 48 samples.

Results

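Zfp36, Zfp36l1, Zfp36l2, Btg1 and Btg2 encode 5 regulators of mRNA decay, and they are 5 of the 22354 genes in a table of liver RNA sequencing counts. They were chosen by symbol with earlier KO and WT results of these same data in view, so their KO minus WT values are given below as a description, with no test. Poly-A RNA was sequenced from the livers of 48 male C57BL/6 mice, 4 to 6 months of age by the series' design text. The 23 KO mice were aP2-Cre Bmal1 fx/fx, meaning that both copies of Bmal1 (gene symbol Arntl) were flanked by recombination sites and that Cre recombinase was driven by the aP2 promoter. The 25 WT mice were littermate controls, and the sources used here do not state which alleles they carried. All mice had spent 36 h in constant darkness, and livers were taken in darkness at 0, 4, 8, 12, 16 and 20 h, from 4 mice of each genotype at each time except 16 h, which had 5 WT and 3 KO mice.

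ZFP36, also called tristetraprolin, and its relatives ZFP36L1 and ZFP36L2 are zinc finger proteins that bind AU-rich elements in the 3′ untranslated regions of mRNAs and bring in the CCR4-NOT complex, which shortens the poly(A) tail. BTG1 and BTG2 bind the deadenylase subunits of the same complex and speed up tail shortening, and both are known for restraining cell proliferation. Zfp36 and Btg2 are also textbook immediate early genes, transcribed within minutes of a stimulus and unstable as mRNA, and in liver ZFP36L1 is known to act on the mRNA of the bile acid enzyme Cyp7a1.

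The members carry in their own sequences some of the elements through which such genes are known to be controlled, and the stretches that differ among them are shown here. A search of both strands of the 250 bases before the start of each gene (RefSeq promoters, build GRCm38.p6, a different build from the mm9 of the count table) found 4 of the 5 members, with no entry for Zfp36l2. Only the Zfp36 promoter among these 4 held a CArG box, the core of the serum response element, at 58 to 49 bases before the start. Only that of Btg2 held a full cAMP response element (TGACGTCA), at 166 to 159 bases before the start. The CArG box was present in 1.47% and the cAMP response element in 1.55% of 32851 promoters of this length. The windows below run 5′ to 3′ on the minus strand and cover the 180 bases before each start, with the matched element in capitals.
Zfp36, chr7:28379229-28379408: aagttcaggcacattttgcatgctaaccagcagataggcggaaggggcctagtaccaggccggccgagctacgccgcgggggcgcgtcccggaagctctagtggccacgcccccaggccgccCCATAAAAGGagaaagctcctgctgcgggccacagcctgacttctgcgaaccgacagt
Btg2, chr1:134079156-134079335: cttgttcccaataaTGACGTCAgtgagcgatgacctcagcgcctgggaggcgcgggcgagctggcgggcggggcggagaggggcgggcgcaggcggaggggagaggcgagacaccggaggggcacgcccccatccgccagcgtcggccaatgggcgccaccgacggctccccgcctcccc

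The other motifs searched for were more common. A TATA box (TATAAA, in 12.4% of promoters) was found for Btg1 and Zfp36l1. A CCAAT box (CCAAT, 33.9%) was found for Btg1, Btg2 and Zfp36l1, and a GC box (GGGCGG, 32.7%) for Btg1, Btg2 and Zfp36, where it shares 1 base with the CArG box. None of the 4 windows held an E-box (CACGTG, 6.02%), an AP-1 site (TGACTCA or TGAGTCA, 4.46%) or a STAT site (TTCCNGGAA, 0.913%). A match is a description of letters and no evidence of binding.

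The 3′ untranslated regions of the 3 Zfp36 family genes each held 3 copies of TATTTAT, the DNA form of the core of the AU-rich element that the family itself binds (GENCODE M21 transcripts, build GRCm38, sense strand only). Zfp36 had them within 774 bases, and 1.23% of the 2365 untranslated regions of a length within 20% had as many. Zfp36l1 had them within 1835 bases and Zfp36l2 within 1822 bases, as many as 4.25% and 4.24% of regions of like length. Btg2 had 1 copy in 2199 bases, where 42.8% of regions of like length had at least 1, and Btg1 had none in 4166 bases, where 60.7% did. Over all 21024 regions, with a median length of 934 bases, the share was 27.4%. One site window of each gene with a match is shown, with the motif in capitals.
Zfp36, bases 571 to 596 of the region: ccttTATTTATgacgacttTATTTAT
Zfp36l1, bases 1144 to 1169: aaaacgTATTTATtgccaaactatgc
Zfp36l2, bases 816 to 841: ttaactTATTTATtatcttgtgaaaa
Btg2, bases 97 to 122: aagagcTATTTATacatgtttttttt

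All 5 members passed the filter on low counts, with at least 10 counts needed in enough libraries, and were fitted with 13646 genes in all. Levels are given as normalised counts scaled to library size (CPM), scaled between libraries by the TMM method. Per kilobase of exon, the mean level over all 48 libraries was highest for Zfp36l1 at 49.3 CPM per kb, followed by Zfp36 at 23.8, Btg1 at 17.9, Zfp36l2 at 11.9 and Btg2 at 7.01. Library totals without albumin lay between 12841969 and 13009797 counts. Arntl itself, the targeted gene, had WT and KO means of 37.0 and 32.4 CPM at 0 h, 21.1 and 9.54 at 4 h, and 2.14 and 3.68 at 8 h. At 12 h they were 2.02 and 6.34, at 16 h 16.2 and 26.3, and at 20 h 32.3 and 32.1. The Arntl difference averaged over the times did not pass the test (log2 0.30 ± 0.16 SE, edgeR adjusted p = 0.347). The aP2 promoter is used to drive Cre in fat cells and is known to act in some other cells too. The labels name adipocyte as cell type and liver as tissue; hepatocyte markers summed to 18689 to 56572 CPM, and 6 adipocyte markers to 1.46 to 77.9 CPM, of which 1 passed the filter. Several libraries stood apart in content. WT_0h replicate 3 held markers of adrenal cortex at 132 CPM, and KO_0h replicate 2 held markers of exocrine pancreas at 316 CPM. KO_16h replicate 2 had the highest hepatocyte marker sum, 56572 CPM against a WT high of 51659 CPM. It was also the highest KO mouse for all 5 members. These 3 are left out together where the text speaks of 3 libraries, and the libraries named next were kept there. B cell and plasma cell markers summed to 1375 CPM in WT_16h replicate 5, against a WT median of 27.9 and a KO high of 56.4, and neutrophil markers to 567 CPM in KO_20h replicate 1, against a KO median of 7.71 and a WT high of 464. In whole liver, fewer cells of a type and less RNA per cell cannot be told apart.

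Zfp36 mRNA was lower in KO liver at all 6 times, and Btg2 mRNA at 5 of 6. Averaged over the times, Zfp36 had a mean of 110 CPM in WT and 52.3 CPM in KO, a log2 difference of −1.04 ± 0.21 (SE), and Btg2 had 24.2 and 13.8 CPM, a difference of −0.82 ± 0.19. Zfp36l2 was lower by less (46.5 and 37.2 CPM, −0.32 ± 0.11), and Zfp36l1 (157 and 137 CPM, −0.19 ± 0.09) and Btg1 (96.2 and 92.2 CPM, −0.03 ± 0.08) lower by least. The Zfp36 and Btg2 values were −1.05 and −0.82 without WT_16h replicate 5, and −1.15 and −0.84 without KO_20h replicate 1. The median over all genes tested was −0.0047. Of the 5 members, 2 (Zfp36 and Btg2) were among the 191 genes with an edgeR adjusted p under 0.05, which are 1.4% of genes tested, and both were among the 106 lower in KO, 0.777% of genes tested. Since earlier results of this contrast guided the choice of members, nothing is read from that count.

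**Figure D1:**
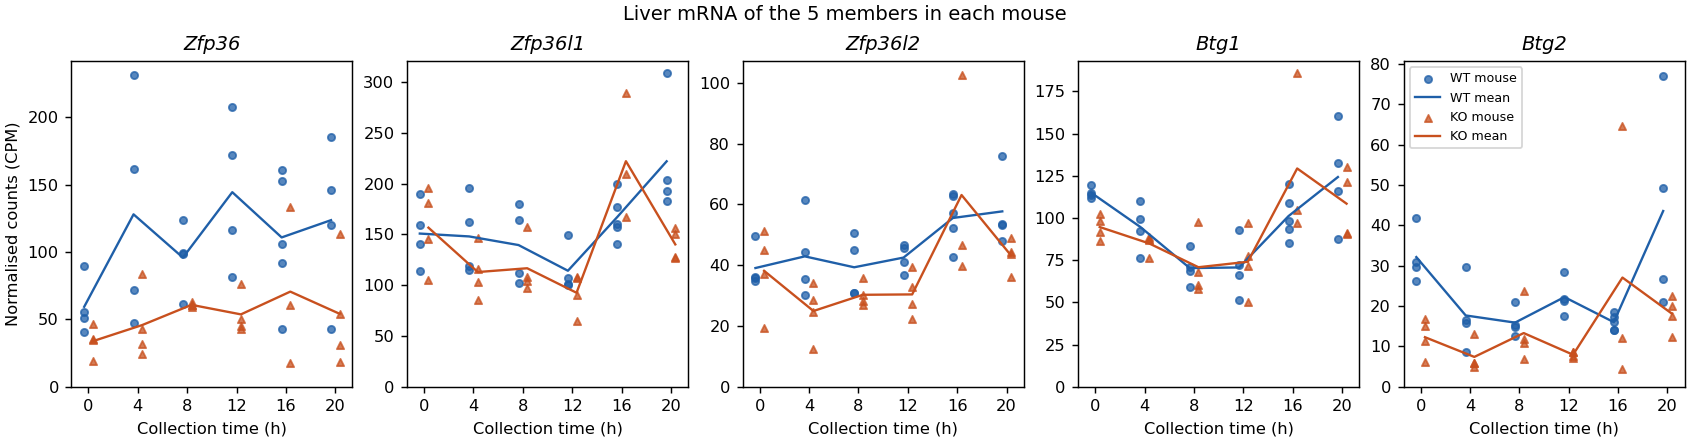
Normalised counts in CPM (y axis, linear from 0) of each member in every mouse against collection time in hours (x axis). Points are mice, WT as circles and KO as triangles, and lines join group means. Zfp36 is lower in KO at every time by group mean, and KO_16h replicate 2 is the highest KO mouse for all 5 genes.

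Zfp36 (ENSMUSG00000044786, mm9 chr7:29161803-29164274) is the AU-rich element binding protein best known for destabilising cytokine mRNAs. At 0 h the WT mice had 89.8, 51.1, 40.6 and 55.6 CPM and the KO mice 35.1, 19.0, 46.7 and 34.3, a log2 difference of −0.81 ± 0.51 (SE) that was −0.54 without WT_0h replicate 1. At 4 h the WT mice had 161, 231, 71.9 and 47.2 CPM and the KO mice 83.8, 24.5, 31.8 and 42.9, a difference of −1.48 ± 0.51. The groups overlapped at both times through single mice, KO replicate 3 at 0 h and KO replicate 1 at 4 h, and the 4 h difference was −1.03 without WT_4h replicate 2, the highest library of the series for this gene. At 8 h the WT mice had 123, 61.6, 98.8 and 99.3 CPM and the KO mice 60.5, 60.9, 62.6 and 58.9, a difference of −0.66 ± 0.50. At 12 h the WT mice had 117, 81.6, 172 and 207 CPM and the KO mice 45.1, 50.3, 42.9 and 76.3, a difference of −1.43 ± 0.51. The 4 KO mice at 8 h lay within 4 CPM of each other while the WT mice were spread, and 12 h was the only time at which the groups did not overlap. At 16 h the WT mice had 161, 42.5, 153, 106 and 92.0 CPM and the KO mice 60.4, 134 and 17.7, a difference of −0.65 ± 0.53. At 20 h the WT mice had 120, 43.2, 146 and 185 CPM and the KO mice 113, 30.7, 18.3 and 54.3, a difference of −1.19 ± 0.51. Both groups were widely spread at these times, and the difference was −1.51 at 16 h without KO_16h replicate 2, −0.20 there without KO_16h replicate 3, and −1.84 at 20 h without KO_20h replicate 1.

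Zfp36l1 (ENSMUSG00000021127, mm9 chr12:81208747-81214000), the most abundant member per kilobase, showed its clearest separation at 20 h. There the WT mice had 193, 183, 204 and 308 CPM and the KO mice 156, 127, 150 and 127, a log2 difference of −0.66 ± 0.23 (SE). All 4 KO mice were below all 4 WT mice. At 16 h the direction was the other way: the WT mice had 200, 141, 158, 161 and 177 CPM and the KO mice 167, 289 and 210, a difference of 0.41 ± 0.23 that was 0.18 without KO_16h replicate 2. The groups overlapped there and at the remaining times, where differences lay between −0.39 at 4 h and 0.05 at 0 h.

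Zfp36l2 (ENSMUSG00000045817, mm9 chr17:84583271-84587287), the third AU-rich element binding protein of the family, was lower in KO by group mean at 5 of 6 times. The largest difference was at 4 h, where the WT mice had 44.3, 61.4, 30.3 and 35.4 CPM and the KO mice 28.5, 12.6, 34.0 and 24.6, −0.78 ± 0.27 (SE) in log2. The groups overlapped by 1 KO mouse. At 12 h the WT mice had 40.9, 46.5, 45.7 and 36.8 CPM and the KO mice 22.4, 27.2, 39.3 and 32.6, a difference of −0.48 ± 0.27 with overlap through KO replicate 3. The positive value at 16 h, 0.18 ± 0.28, became −0.36 without KO_16h replicate 2, in which Zfp36l2 stood at 103 CPM against 46.7 and 39.8 in the other 2 KO mice, and 0.42 without KO_16h replicate 3.

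Btg2 (ENSMUSG00000020423, mm9 chr1:135971747-135975697) is the deadenylation-promoting BTG protein that is also a known p53 target. At 0 h the WT mice had 26.3, 30.8, 29.5 and 41.8 CPM and the KO mice 6.07, 16.7, 15.1 and 11.2, a log2 difference of −1.39 ± 0.46 (SE). At 12 h the WT mice had 21.6, 17.4, 21.2 and 28.5 CPM and the KO mice 7.08, 8.50, 7.50 and 8.63, a difference of −1.48 ± 0.47. At these times every KO mouse was below every WT mouse. At 4 h the WT mice had 15.9, 29.6, 8.67 and 16.5 CPM and the KO mice 13.0, 5.80, 4.93 and 5.80, a difference of −1.26 ± 0.47. At 20 h the WT mice had 21.0, 26.7, 49.3 and 77.0 CPM and the KO mice 22.6, 17.6, 12.4 and 19.9, a difference of −1.26 ± 0.46. The groups overlapped at 4 h and 20 h through KO replicate 1 in each case. At 8 h the WT mice had 21.0, 15.4, 12.5 and 14.7 CPM and the KO mice 10.9, 23.7, 11.7 and 6.90, a difference of −0.26 ± 0.46 that was −0.70 without KO_8h replicate 2 and −0.04 without KO_8h replicate 4. At 16 h the WT mice had 14.0, 14.1, 17.3, 18.5 and 16.0 CPM and the KO mice 12.1, 64.7 and 4.33, a difference of 0.75 ± 0.46. That positive value rested on 1 mouse: without KO_16h replicate 2 it was −0.96, and without KO_16h replicate 3 it was 1.25.

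Btg1 (ENSMUSG00000036478, mm9 chr10:96079635-96085447), the closest relative of Btg2, had the smallest average difference between genotypes. At 0 h the WT mice had 114, 115, 112 and 120 CPM and the KO mice 86.4, 98.2, 102 and 91.8, a log2 difference of −0.28 ± 0.20 (SE) with no overlap. At the other times the groups overlapped, with differences from −0.20 at 20 h to 0.35 at 16 h, and the latter was −0.00 without KO_16h replicate 2. Counting over the members, the WT and KO ranges did not overlap for 2 of 5 at 0 h (Btg1 and Btg2, 3.66% of all genes tested), 2 at 12 h (Zfp36 and Btg2, 3.25%), 1 at 20 h (Zfp36l1, 1.1%) and none at 4 h (7.79%), 8 h (1.67%) or 16 h (1.17%). These too are measures of the contrast that guided the choice.

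**Figure D2:**
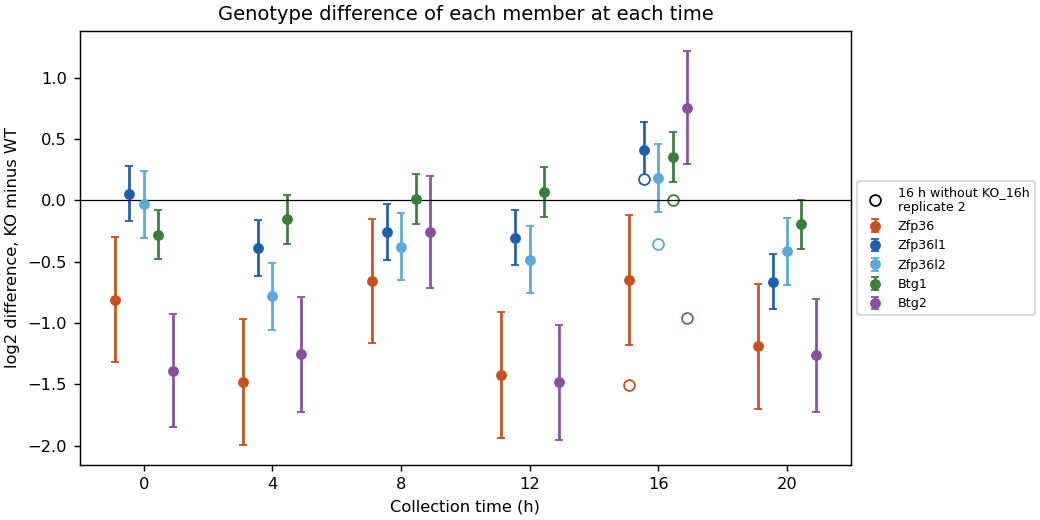
The log2 difference between KO and WT group means (y axis) of each member at each collection time in hours (x axis, points shifted sideways for legibility), with standard errors from the fit over all 48 libraries as bars. Open circles give the 16 h values without KO_16h replicate 2, which take Btg2 from 0.75 to −0.96 and Zfp36 from −0.65 to −1.51.

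Whether the genotype difference varied with time was tested directly. The genotype by time interaction had an edgeR adjusted p of 0.953 for each of the 5 members, with unadjusted p of 0.00714 for Btg2 and 0.0344 for Zfp36l1. It called 1 gene of all tested, Npas2 (0.00733% of genes), against 447 at an unadjusted p under 0.05. Btg1, Btg2, Zfp36l1 and Zfp36l2 had a positive 16 h difference and negative ones at most other times. Each of these 16 h values moved toward lower KO levels without KO_16h replicate 2.

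Over the day, Btg1 followed a 24 h rhythm in both genotypes. In WT its fitted amplitude, the log2 distance from mean to peak, was 0.44 with a peak at 21.6 h (edgeR adjusted p = 6.0e-04), and in KO 0.35 with a peak at 19.7 h (edgeR adjusted p = 0.00704). Its WT means went from 124 ± 30.6 CPM (SD, n = 4) at 20 h and 115 ± 3.34 at 0 h to 70.3 ± 9.96 at 8 h and 70.7 ± 17.1 at 12 h, the last 2 of which differed by less than their SD. The calls for Btg1 held in each of 53 alternative fits in each genotype. Genes called rhythmic made up 16.3% of genes tested in WT and 17% in KO, with median amplitudes of 0.44 and 0.46.

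In WT the Btg2 means were highest at 20 h (43.5 ± 25.5 CPM, SD, n = 4) and 0 h (32.1 ± 6.75) and lowest at 8 h (15.9 ± 3.63), as were those of Btg1. The orders of Btg1 and Btg2 differed at 12 and 16 h. At 16 h Btg2 was near its 8 h mean, at 16.0 ± 1.97 CPM (n = 5), while Btg1 was at 101 ± 13.6. In the Btg2 order only the step from 0 h to 12 h (22.2 ± 4.62) exceeded the larger SD. In KO, Btg2 means ran from 27.0 ± 32.8 CPM at 16 h to 7.93 ± 0.76 at 12 h and 7.39 ± 3.78 at 4 h, with no step larger than the SD.

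The KO means of Btg1 ran from 129 ± 49.4 CPM (SD, n = 3) at 16 h and 108 ± 20.5 at 20 h, over 94.6 ± 6.96 at 0 h and 84.9 ± 6.01 at 4 h, to 74.1 ± 19.3 at 12 h and 70.8 ± 18.3 at 8 h. For Zfp36l1 the WT means ran from 222 ± 58.3 CPM (SD, n = 4) at 20 h, over 167 ± 22.2 at 16 h, 151 ± 32.2 at 0 h, 148 ± 38.2 at 4 h and 139 ± 38.3 at 8 h, to 114 ± 23.3 at 12 h, and no neighbours in that order differed by more than the larger SD. In KO its means ran from 222 ± 61.9 CPM at 16 h, over 157 ± 40.3 at 0 h, 140 ± 15.2 at 20 h, 117 ± 27.5 at 8 h and 113 ± 25.6 at 4 h, to 92.5 ± 20.5 at 12 h. Both genotypes thus had their lowest Zfp36l1 mean at 12 h, and in KO only the step down from 16 h exceeded the SD. The WT means of Zfp36l2 ran from 57.7 ± 12.5 CPM at 20 h and 55.5 ± 8.57 at 16 h to 39.3 ± 10.2 at 8 h and 39.0 ± 7.12 at 0 h. In KO they ran from 63.1 ± 34.4 CPM at 16 h and 43.2 ± 5.34 at 20 h to 30.2 ± 3.96 at 8 h and 24.9 ± 9.10 at 4 h. All 3 genes had their highest means at 16 or 20 h, and no step in the order of Zfp36l2 exceeded the SD in either genotype.

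Zfp36l2 passed the rhythm test in KO (amplitude 0.50, peak 17.8 h, edgeR adjusted p = 0.00488) and not in WT (0.28, 17.7 h, 0.168). Zfp36l1 likewise passed in KO (0.36, 19.7 h, edgeR adjusted p = 0.0445) and not in WT (0.33, 20.6 h, 0.0716). The adjusted p of Zfp36l2 in KO was 0.0703 without the 16 h groups. The KO call of Zfp36l1 was borderline: it did not hold in 23 of 53 alternatives, among them the left-out mice KO_8h replicate 3 (0.0745), KO_4h replicate 2 (0.0725) and KO_16h replicate 2 (0.0862). Its WT rhythm in turn passed in 4 alternatives, without the 3 libraries of unusual content (0.0257), WT_8h replicate 4 (0.0387), WT_0h replicate 3 (0.0462) or KO_16h replicate 2 (0.0476), and in the first and the last of these it did not pass in KO. Btg2 did not pass in WT (0.53, 21.4 h, edgeR adjusted p = 0.0775) or in KO (0.49, 18.6 h, 0.0724), although its WT rhythm passed in 4 alternatives, among them without KO_16h replicate 2 (0.0311) and without the 16 h groups (0.00907), and its KO rhythm in 2, without KO_8h replicate 2 (0.0183) and without KO_16h replicate 3 (0.0213). Zfp36 did not pass in either genotype (edgeR adjusted p = 0.576 in WT and 0.396 in KO). Its WT means were lowest at 0 h (59.3 ± 21.3 CPM, SD, n = 4) and highest at 12 h (144 ± 56.1), and of the neighbours in that order only the step from 95.8 CPM at 8 h to the 0 h value exceeded the larger SD. The test of a rhythm difference between genotypes gave an adjusted p of 1.00 for every member and called 1 gene, Mpzl1 (0.00733%), with 363 at an unadjusted p under 0.05, so that passing in 1 genotype alone was not shown to be a difference between genotypes.

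Mice of the same group differed most in Zfp36 and Btg2. The pooled SD within groups was 0.78 in log2 for Zfp36 and 0.68 for Btg2, and 6.27% and 10.6% of genes averaging at least 1 CPM varied more. Zfp36l2 (0.40), Zfp36l1 (0.32) and Btg1 (0.28) lay near or under the median gene (0.39). The members deviated together in part: all 5 were above their group mean in 7 of 48 libraries and below it in 9. KO_16h replicate 2 was above its group mean for all 5, at 134 CPM for Zfp36, 289 for Zfp36l1, 103 for Zfp36l2, 186 for Btg1 and 64.7 for Btg2.

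**Figure D3:**
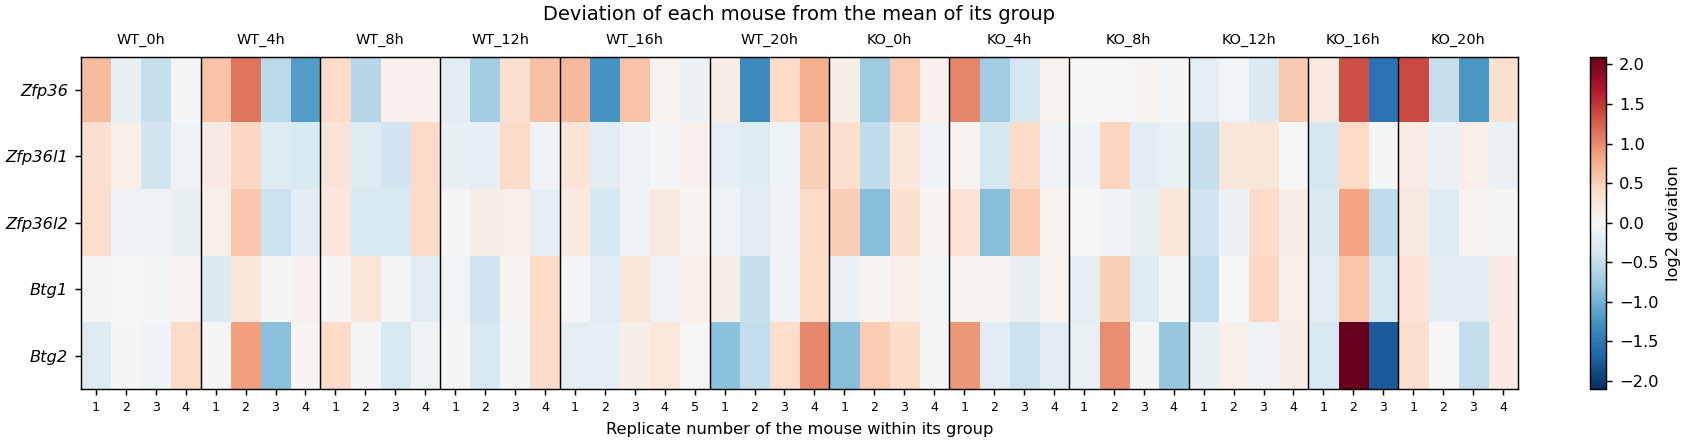
The log2 deviation of each mouse from its group mean (colour, red above and blue below) for the 5 members (rows) in the 48 mice (columns, ordered by group and labelled with the replicate number). KO_16h replicate 2 is red in all 5 rows, and Zfp36 and Btg2 show deeper colours than Btg1.

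Correlations of log2 CPM across the 48 libraries are descriptions of libraries that share groups and scaling. The highest among the members was that of Zfp36l1 with Zfp36l2, r = 0.81, and 0.79 over deviations from group means. Btg1 and Btg2 correlated at 0.56 (0.61 over deviations) and Zfp36 and Btg2 at 0.56 (0.60). Zfp36 and Btg1 correlated at 0.16 over all libraries but at 0.51 over deviations. Without KO_16h replicate 2 these values were 0.78, 0.49, 0.55 and 0.11 over all libraries.

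Levels of other cell types' markers moved with some of these deviations, and their part in the results was not tested. The summed level of 8 stellate cell and fibroblast markers, 138 to 700 CPM in WT and 175 to 706 CPM in KO, correlated at −0.66 with the deviations of Zfp36. Over deviations, the sum of 9 macrophage and Kupffer cell markers (125 to 1218 CPM in WT, 127 to 701 in KO) correlated with it at −0.48, that of 10 T and NK cell markers (3.63 to 17.8 and 2.23 to 9.62) at −0.47, and that of 9 hepatocyte markers with Btg2 at 0.71. The hepatocyte sum also correlated with Zfp36 at 0.55 and Btg1 at 0.49, and the macrophage sum with Zfp36l1 at −0.54. All include KO_16h replicate 2, which had the highest hepatocyte sum and a Btg2 deviation of 2.09 in log2. Abundant markers weigh most in such sums. Of the stellate cell and fibroblast markers, Dcn averaged 282 CPM in WT and 258 in KO, and the next, Reln, 58.9 and 51.7. That sum is therefore largely the level of Dcn, and correlations of single markers with the members are not given. No marker of the lists was at 0 in all libraries. Of the stellate, macrophage, T and NK cell and hepatocyte markers that were tested, none passed the KO minus WT test (lowest edgeR adjusted p = 0.0646, 0.487, 0.0735 and 0.231). Of 7 B cell and plasma cell markers tested 1 was lower in KO, Ighm, the heavy chain of immunoglobulin M (71.2 ± 240 CPM, SD, in WT and 8.99 ± 3.87 in KO, −1.63 ± 0.44 SE, edgeR adjusted p = 0.0488). Of all genes tested, 0.777% were called lower. The summed B cell and plasma cell markers stood at 1375 CPM in WT_16h replicate 5 against a WT median of 27.9, and no Ighm value without that library is given. All 8 neutrophil markers had a negative change, with a median of −1.67, and none passed (lowest edgeR adjusted p = 0.287, 1 at an unadjusted p under 0.05). Over all genes tested, 51.1% had a negative change and 1.4% were called. The summed level of the neutrophil markers correlated with the deviations of Zfp36 at 0.22 and with those of Btg2 at 0.06, and that of the B cell and plasma cell markers at −0.12 and −0.20.

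Among 10857 other genes averaging at least 1 CPM, those most like each member over the 48 libraries were named by Pearson's r. Clock genes other than Arntl, the other members and genes with predicted or clone names were left out beforehand. None of those could therefore be named, however high its r. For Zfp36 they were Pim3 (r = 0.86), a serine/threonine kinase, Csrnp1 (0.85), a nuclear protein induced by growth signals, Mafg (0.81), a small Maf transcription factor, Mast3 (0.80) and Erf (0.80), an ETS-domain repressor. Over deviations from group means the highest for Zfp36 were Mafg (0.89), Pdcd6ip (0.89) and Zdhhc8 (0.88). For Btg2 they were Jun (0.78), a subunit of AP-1, Gadd45g (0.77), a stress-inducible gene, Mafk (0.74), Gjc3 (0.74) and Fos (0.74), the other AP-1 subunit, and over deviations Map1lc3b (0.73), Got1 (0.73) and Rnd1 (0.73). Zfp36l1 was closest to Pnrc1 (0.79), Lcmt2 (0.74), Vps37b (0.74), Hdac5 (0.73) and Sec24b (0.73), and over deviations to Sec24b (0.70), Tgif1 (0.69) and Phlda1 (0.69). Zfp36l2 was closest to Spry1 (0.76), an inhibitor of receptor tyrosine kinase signalling, Irf2bp2 (0.75), Sec24b (0.75), Ttc7b (0.75) and Ubr2 (0.73), and over deviations to Sec24b (0.75), Ubr2 (0.70) and Trmt1 (0.69). Btg1 was closest to Rbpms (0.83), an RNA-binding protein, Gfod2 (0.82), Pnrc1 (0.82), St5 (0.80) and Leo1 (0.79), and over deviations to Adck5 (0.76), G3bp1 (0.75), a stress granule protein, and Sap18 (0.74). Sec24b, a COPII coat subunit, was thus on the lists of both Zfp36l1 and Zfp36l2.

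Of the other BTG/TOB genes, whose proteins also bind the deadenylase, 3 could be tested, all with a negative change, and 1 passed. Of all genes tested, 51.1% had a negative change and 0.777% were called lower. This list too was chosen with earlier results of these data known, so its calls are not independent evidence. Tob1, a BTG/TOB protein that links RNA-binding proteins to CCR4-NOT, fell from 142 ± 34.2 CPM (SD over the WT libraries) to 96.9 ± 30.6 in KO, by 0.55 ± 0.12 (SE) on the log2 scale (edgeR adjusted p = 0.0103), and it held in each of 54 alternatives. Tob2 (−0.45 ± 0.14, edgeR adjusted p = 0.096) passed in 6 of 54, among them the DESeq2 test. Btg3, at 1.31 CPM in WT and 0.943 in KO, did not pass (−0.47 ± 0.18, edgeR adjusted p = 0.185). Tob1 was not rhythmic in WT or KO (edgeR adjusted p = 0.919 and 0.966).

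Of the enzymes that these regulators recruit or act beside, none passed the test, where 1.4% of all genes tested did. At that share few or no calls are to be looked for in lists of this size, so nothing is read from their absence. The share of all genes with an unadjusted p under 0.05 is not given here, so those counts have no background either. None of 11 CCR4-NOT genes tested passed in either direction by edgeR or by DESeq2, and none had an unadjusted p under 0.05. Their median log2 change was 0.0066, and the 2 with the lowest p were the deadenylase subunits Cnot6l (0.20 ± 0.11 SE, edgeR adjusted p = 0.348) and Cnot7 (0.15 ± 0.10, 0.431). None of 8 other poly(A) tail factors passed, with 0 at an unadjusted p under 0.05, and the lowest p values were those of Paip2 (0.17 ± 0.09, edgeR adjusted p = 0.331) and Pabpn1 (−0.17 ± 0.10, 0.375). None of 16 decapping and 5′ decay genes passed, with 2 at an unadjusted p under 0.05, Eif4enif1 (−0.16 ± 0.07, edgeR adjusted p = 0.230) and the decapping scaffold Edc4 (−0.23 ± 0.11, 0.289). None of 15 exosome and SKI genes passed, with 0 at an unadjusted p under 0.05, and Skiv2l (−0.24 ± 0.14, edgeR adjusted p = 0.376) and Exosc4 (−0.19 ± 0.14, 0.484) were first by p. The DESeq2 count was 0 for these lists too. Median changes of the last 3 lists were −0.0033, −0.022 and 0.037.

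Other proteins that bind AU-rich or stem-loop elements of mRNAs were counted as well, beside 1.4% of all genes tested called by edgeR. Few or no calls are to be looked for in lists of this size at that share. No share over all genes is given for an unadjusted p under 0.05. None of 13 passed by edgeR or DESeq2, with 1 at an unadjusted p under 0.05, the stabilising protein Elavl1 (0.15 ± 0.07 SE, edgeR adjusted p = 0.236), followed by Tial1 (0.14 ± 0.09, 0.419). The p38 MAP kinase axis and the 14-3-3 proteins, which phosphorylate ZFP36 and hold it inactive, had none of 12 past the edgeR test and 1 lower by DESeq2. DESeq2 called 356 genes of all tested, in both directions. The lowest p values were those of Map2k6, an upstream kinase of p38 (10.9 CPM in WT and 7.39 in KO, −0.63 ± 0.19, edgeR adjusted p = 0.0915), and Ywhab (0.12 ± 0.06, 0.293). Of these 12, 7 were rhythmic in WT and 7 in KO, where 16.3% and 17% of all genes tested were.

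**Figure D4:**
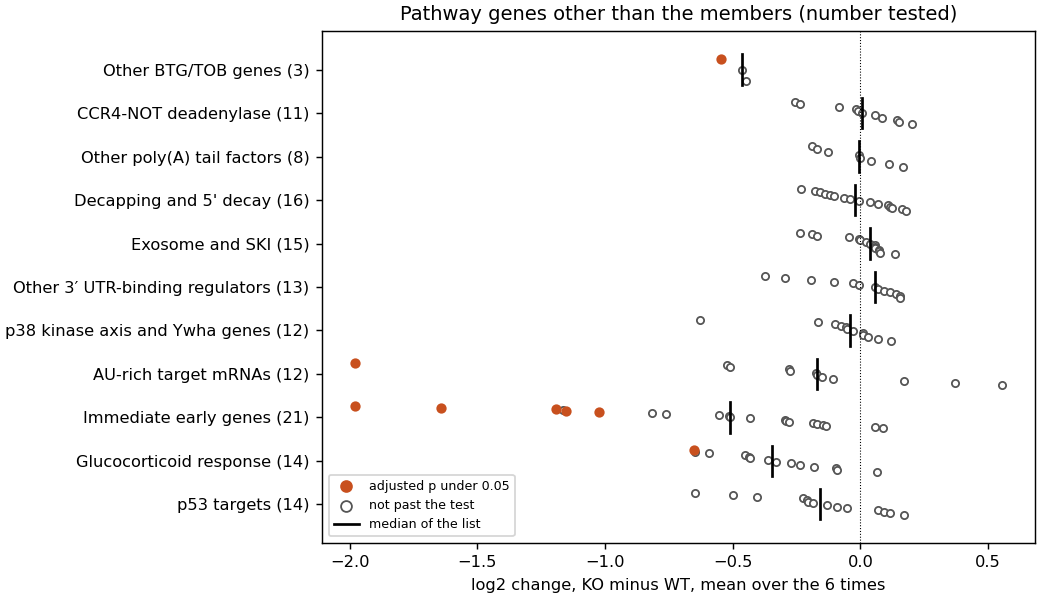
The log2 change between KO and WT, mean over the 6 times (x axis), of the genes tested in each list (y axis, number tested in brackets). Filled points passed an edgeR adjusted p of 0.05, open points did not, and vertical bars are list medians, which lie near 0 for the decay enzymes (0.0066 for CCR4-NOT) and at −0.51 for the immediate early genes.

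AU-rich mRNAs are the known targets of the family. Of 20 listed, 12 had enough counts to be tested, none was higher and 1 was lower, and the median change was −0.17 with 9 of 12 negative, while 51.1% of all genes tested had a negative change and 0.777% were called lower. The 1 that passed was Fos (3.47 ± 3.03 CPM, SD, in WT and 0.848 ± 0.744 in KO, −1.98 ± 0.26 SE in log2, edgeR adjusted p = 4.84e-06), which is also on the next list. Ier3 was next by p (−0.51 ± 0.18, edgeR adjusted p = 0.131).

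The immediate early genes, the class to which Zfp36 and Btg2 belong, were chosen with results of these samples known, so their direction is not independent evidence. Of 21 tested besides the members, 19 had a negative change and the median was −0.51, against 51.1% negative and a median of −0.0047 over all genes. Of the 21, 5 were lower and none higher, where 0.777% of all genes tested were called lower. Besides Fos these were Dusp1, a MAP kinase phosphatase (78.1 and 25.9 CPM, −1.64 ± 0.18 SE, edgeR adjusted p = 1.71e-07), the AP-1 subunits Junb (31.9 and 14.3 CPM, −1.15 ± 0.19, 4.2e-04) and Jun (30.8 and 13.8 CPM, −1.19 ± 0.23, 0.0029), and Csrnp1 (10.1 and 5.01 CPM, −1.02 ± 0.21, 0.00534). Each of the 5 passed in all 54 alternatives, and without the 3 libraries of unusual content together 9 passed. In that alternative the calls over all genes, in both directions, also rose, from 191 to 303. They were 363 without KO_16h replicate 2 alone, which is 1 of those 3. Without KO_16h replicate 3, a library kept in that alternative, they were 99.

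The members respond in other settings to glucocorticoids and, for Btg2, to p53, so both gene groups were counted. Of 14 glucocorticoid response genes 1 was lower, 13 had a negative change and the median was −0.35, beside 0.777% called lower and 51.1% negative over all genes tested. Fkbp5, a co-chaperone of the glucocorticoid receptor (154 and 88.9 CPM, −0.65 ± 0.18 SE, edgeR adjusted p = 0.0488), was called in 19 of 54 alternatives, and Sgk1 did not pass (−0.44 ± 0.12, 0.0528). The count was 5 without the 3 libraries of unusual content and 3 by DESeq2, where calls over all genes were 303 and 356 against 191 in the main fit. None of 14 p53 targets passed by edgeR or DESeq2, where edgeR called 1.4% of all genes tested. An unadjusted p under 0.05 was found for 4 of the 14, but no share over all genes is given to set beside it. Of the 14, 10 had a negative change, beside 51.1% over all genes tested, and the median was −0.16. Without the 3 libraries of unusual content 1 was lower. The lowest p values were those of Phlda3 (−0.50 ± 0.18 SE, edgeR adjusted p = 0.158) and the apoptosis effector Bax (−0.22 ± 0.09, 0.180).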

How the data were processed

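Poly-A RNA libraries (TruSeq version 2 kit, per the labels' protocols) of 48 livers, each from a separate mouse, were grouped by genotype and time from the labels. The table deposited by the authors holds whole-number read counts per gene. The submitters' processing notes name CASAVA, the aligner STAR 2.4.1d and build mm9. As to how reads were counted, whether strand was used and why library totals lie so close, the sources used here do not say. Albumin, the only row marked as highly expressed in the table, was left out.

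Counts were fitted with edgeR 4.0.16 (R 4.3.3) by quasi-likelihood: 13646 genes passed its filter (minimum count 10, total 15), with TMM scaling, 12 group means over all 48 libraries, and a 24 h cosine and sine for each genotype. P-values were adjusted by Benjamini-Hochberg over all genes tested. A standard error is the log2 change divided by the square root of F. Amplitudes and correlations used log2 CPM with a prior count of 2. Marker sums were scaled to library totals only, without TMM and without that prior count, before log2. DESeq2 1.42.0, other scaling, no filter, a replicate block and leaving out libraries were alternatives.

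Members and gene lists were chosen with earlier results of these data known. Named genes are the members, from each list those past the test (or the 2 of lowest p), and for each member the 5 genes of highest r and 3 over deviations. Clock genes other than Arntl, other members and genes with predicted or clone names were left out of that ranking. Values by time without single libraries, correlations without KO_16h replicate 2 and list counts by alternative were added after seeing the data. Replicate numbers were not taken to pair WT and KO mice, since at no time did every same-numbered pair correlate above 0.1. Many pairs did, 3 of 4 at 4, 12 and 20 h, 2 of 4 at 0 and 8 h and 1 of 3 at 16 h. The replicate 1 pairs correlated at 0.11 to 0.61 over the 6 times, and where this comes from was not tested. With the replicate block Zfp36 was at −1.09 ± 0.24 (SE) and Btg2 at −0.94 ± 0.20, and 124 genes were called against 191. No pair of libraries of a group agreed within sampling noise (lowest chi-square per degree of freedom 20.7).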

Additional observations from a re-analysis of the deposited data

Results flagged for a closer look

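Of 55 groups of 4 or 5 mice looked at for the members, 6 held a mouse whose gap to the nearest other exceeded Dixon's 95% critical value for the group's range, and chance flags about 1 in 20 groups. For Zfp36l1, WT_12h replicate 3 stood at 148.9 CPM against 99.8 to 107 in the other mice of its group, WT_20h replicate 4 at 308.4 CPM against 183 to 204, and KO_8h replicate 2 at 157.3 CPM against 97.5 to 108. Zfp36l2 was at 49.7 CPM in WT_0h replicate 1 against 34.7 to 35.9. Btg1 was lowest in KO_4h replicate 3, at 76.0 CPM against 87.0 to 89.0. Btg2 was at 13.0 CPM in KO_4h replicate 1 against 4.93 to 5.80, and this mouse is the one that overlapped the WT range at 4 h. The 3 KO mice at 16 h, among them the high KO_16h replicate 2, were too few for this rule.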

How the results depend on the processing

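The KO minus WT values of the 5 members kept their sign in the 54 alternatives run, from −1.19 to −0.96 for Zfp36 and −1.14 to −0.73 for Btg2. Counts over all genes moved more; the cause was not tested. The 191 genes called for KO minus WT became 356 with DESeq2, 122 with no filter, 124 with the replicate block and 303 without the 3 libraries of unusual content, and ranged from 99 (without KO_16h replicate 3) to 484 (without KO_4h replicate 1) when single libraries were left out. Without KO_16h replicate 2 alone, 1 of those 3 libraries, the count was 363. The 1 interaction call became 11 with DESeq2, 0 with the replicate block and 0 without the 3 libraries, and 0 to 3 with single libraries left out (edgeR; 447 at an unadjusted p under 0.05 with all libraries). Rhythmic genes in KO, 2322, ranged from 1628 (without KO_20h replicate 1) to 3691 (without KO_16h replicate 3), those in WT, 2228, from 1556 to 2987 over all alternatives, and the 1 rhythm difference became 5 with DESeq2 and 1 to 2 with single libraries left out. Over deviations from group means the correlations of Zfp36l1 with Pnrc1, Btg1 with Rbpms and Btg2 with Jun were 0.66, 0.69 and 0.60. Depth limits Btg2 most, with 53 counts in its lowest library.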
